A study of Mus musculus with 6 samples.

Results

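The genes described are 10 markers of macrophages and of white blood cells in general, taken by symbol from a deposited table of counts for 27098 mouse genes. They are Ptprc, Csf1r, Cx3cr1, Adgre1, Cd68, Mrc1, C1qa, C1qb, C1qc and Tyrobp, and all 10 had enough counts to be among the 17475 genes tested. Their transcripts were measured by messenger RNA sequencing of whole ovaries from mice 3 days after birth. The ovaries were kept in DMEM/F12 medium with antibiotics and treated for 2 h. In 3 libraries, called PRP 1 to PRP 3, the medium held 2% platelet-rich plasma (PRP), a plasma fraction rich in platelets and their growth factors. In 3 libraries, called control 1 to control 3, it held no PRP. The series text describes the plasma as human and activated with thrombin, and no control with thrombin or other plasma is named. The labels name no strain, litter or number of ovaries per library. Nothing in them says that replicates came from separate cultures, so p-values measure only the spread between these libraries, which may be technical.

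Macrophages of the ovary settle there before and around birth and stay as resident phagocytes that clear dying germ cells and follicle debris. Their survival depends on the receptor encoded by Csf1r, which binds the growth factors CSF1 and IL-34. They make C1q, the first component of the classical complement pathway, which tags debris for uptake, and they sense danger through receptors that signal by way of the adaptor TYROBP. PU.1, an ETS family transcription factor, is the master regulator of the lineage, and the DNA motif it binds is known as the PU-box.

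Library totals ran from 36037111 to 36568367 counts in PRP and from 35568000 to 35825931 counts in control. The 10 genes together took only 0.00745% to 0.00917% of a library, or 2651 to 3314 counts. Control 3 stood apart in blood genes. The 8 red cell genes examined summed to 110 to 225 CPM (counts scaled to library size) in the PRP libraries and to 109, 145 and 1571 CPM in controls 1, 2 and 3. S100a8, a neutrophil gene, lay between 0.39 and 0.47 CPM in PRP, and was at 0.59, 0.45 and 10.6 CPM in controls 1, 2 and 3. The part of this blood signal in the results below was not tested, and fold changes without control 3 are given for the 10 genes where the sign changes and for the macrophage lists.

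The promoters of 6 of the 10 genes (Ptprc, Cx3cr1, Cd68, Mrc1, C1qb and C1qc) were in the RefSeq promoter table of GRCm38.p6. The 250 bases before each start site were searched on both strands for the PU-box core GAGGAA and, separately, for the longer ETS sequence AGGAAGT, which overlaps the core in part. Both were kept from 5 sequences tried on these promoters, so they were chosen after the promoters were seen. The core was found for 5 of the 6 genes and in 23.3% of all 32851 promoter windows, and AGGAAGT for 4 of the 6 and in 7.69% of all windows. A gene was counted if any of its windows matched, while the shares are per window, and the 32851 windows belong to 27025 genes. So the counts and the shares are not like for like. Windows of 30 bases around the core are shown for these 5 genes because they are what the promoters of genes from different chromosomes and with different roles have in common by letters. Each is on the strand of its gene, 5′ to 3′, with the match in capitals. GAGGAA is on the gene's strand and TTCCTC marks the same core on the other strand.
Ptprc: tgttttcctttaGAGGAAaattgagacgaa
Mrc1: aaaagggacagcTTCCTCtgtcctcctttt
C1qb: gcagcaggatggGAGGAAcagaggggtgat
C1qc: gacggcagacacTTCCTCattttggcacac
Cd68: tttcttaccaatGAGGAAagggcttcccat
They lie at chr1:138175446-138175475 (minus strand) for Ptprc, chr2:14229367-14229396 (plus) for Mrc1, chr4:136886213-136886242 (minus) for C1qb, chr4:136893090-136893119 (minus) for C1qc and chr11:69666378-69666407 (minus) for Cd68. The core began 158 bases before the start site in Ptprc, 35 in Mrc1, 30 in C1qb, 193 in C1qc and 225 in Cd68. For Ptprc this start site lies inside the gene, whose span on the minus strand begins at 138175756, and so does the stretch shown. Another start site of Ptprc was also searched. In Mrc1 the core also occurred 167 and 180 bases before the start. In C1qc the core and the longer sequence overlapped. Cx3cr1 was the gene with no core in this window. These matches are of letters and no binding was measured.

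The 10 genes were set against each other per kilobase of transcript, since counts grow with transcript length. C1qa stood highest, at a median of 9.37 CPM per kb over the 6 libraries. Tyrobp (7.43), C1qc (6.95), C1qb (6.72), Cd68 (5.11), Mrc1 (4.11) and Csf1r (3.59) followed, as medians on the same scale. Adgre1 (1.37), Cx3cr1 (0.78) and Ptprc (0.53) were lowest. Each gene's range over the libraries overlapped that of the next in order, except that the lowest Csf1r value (3.02) lay above the highest Adgre1 value (1.85), and the lowest Adgre1 value (1.10) above the highest Cx3cr1 value (0.96). Per kilobase of coding sequence, Csf1r came before Mrc1 and Cx3cr1 before Adgre1, because the Cx3cr1 transcript has 1062 coding bases of 4493.

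**Figure D1:**
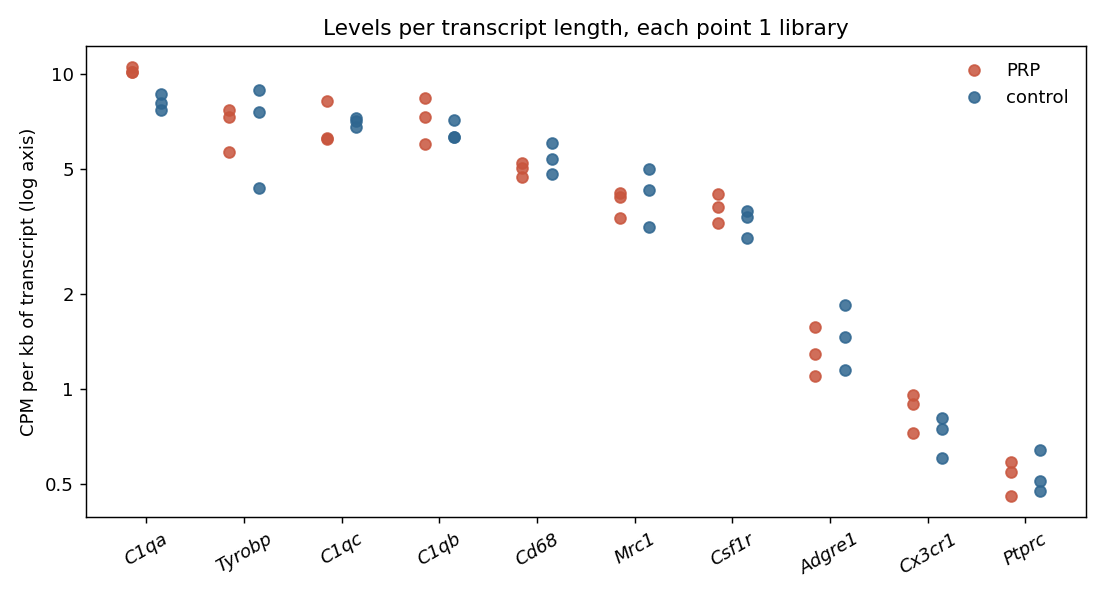
Level of each gene in CPM per kilobase of transcript on a log axis, with 1 point per library and PRP left of control for each gene. The medians span 9.37 for C1qa to 0.53 for Ptprc, and the PRP and control points of C1qa are the only ones that do not overlap.

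PRP was compared with medium alone to ask whether transcripts of resident macrophages differed after 2 h. In the planned fit, which takes the libraries as 2 unpaired groups, edgeR's quasi-likelihood test with Benjamini-Hochberg adjustment called 0 of the 10 genes at 0.05, and 0% of all 17475 genes. C1qa was the single member with an unadjusted p below 0.05, where 3.19% of all genes lay below that level. It was also the single member whose 3 PRP libraries all lay above the 3 control libraries, which held for 4.34% of all genes. No member had all PRP libraries below all controls, as 4.87% of all genes had. With the replicate number as a block 0 of the 10 passed, against 0.12% of all genes, and again only C1qa had an unadjusted p below 0.05, against 11.2% of all genes. DESeq2 and limma-voom also called 0 of the 10. A count of 1 in 10 genes is too small to be set apart from these background shares.

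The median log2 fold change of the 10 genes, PRP over control, was -0.02, beside 0.00 over all tested genes. It was 0.15 without control 3. Of the 10, 4 lay above 0 and 6 below. By replicate number the members' medians were 0.19, -0.05 and -0.12, with 6, 4 and 4 members higher in the PRP library of the pair. The 10 genes summed to 91.0, 77.6 and 90.1 CPM in PRP 1 to 3 and to 87.9, 73.9 and 89.9 CPM in controls 1 to 3. In both groups replicate 2 was the lowest, and the groups overlapped. The mean was 86.2 ± 7.5 CPM in PRP and 83.9 ± 8.7 CPM in control (SD, n = 3 each). In whole ovary RNA, a difference in the number of macrophages cannot be told apart from a difference in RNA per macrophage.

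**Figure D2:**
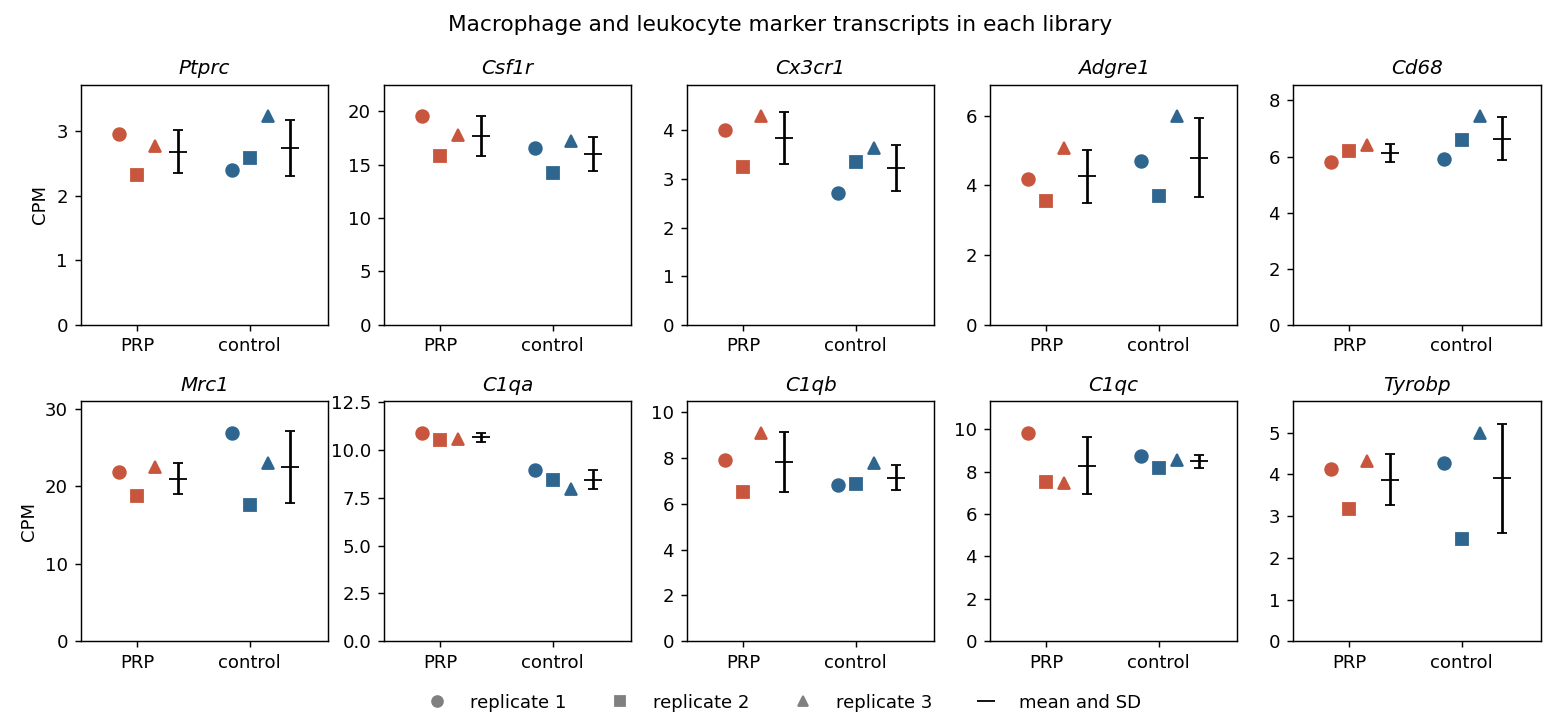
CPM of the 10 genes in each library, PRP left and control right, with the marker shape giving the replicate number and the black bar the mean with its SD (n = 3). C1qa lies at 10.5 to 10.9 CPM in PRP and at 7.98 to 8.98 CPM in control, while the groups overlap in the other 9 genes.

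**Figure D3:**
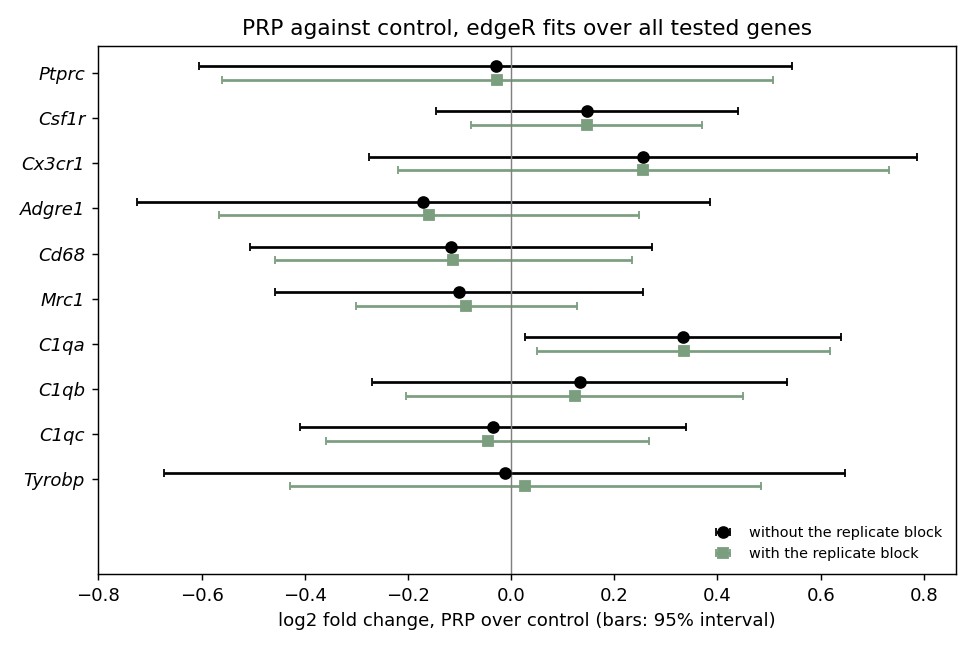
Log2 fold change of each gene, PRP over control, with its 95% interval in the fit without (circles) and with (squares) the replicate block. The interval of C1qa runs from 0.03 to 0.64 without the block, and the intervals of the other 9 genes span 0 in both fits.

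Ptprc (Entrez 19264, chromosome 1, 138062859 to 138175756, 33 exons) encodes CD45, the membrane phosphatase of nearly all white blood cells. It had 2.97, 2.32 and 2.77 CPM in PRP 1 to 3, against 2.40, 2.59 and 3.24 CPM in controls 1 to 3. The highest value belonged to control 3 and the lowest to PRP 2, so the groups overlapped. Its log2 fold change was -0.03 ± 0.26 (SE) and 0.11 without control 3, and the 95% interval of the fold ran from 0.66 to 1.46. With 84 to 114 counts per library, counting alone gives it a coefficient of variation of 10.1%.

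Csf1r (Entrez 12978, chromosome 18, 61105572 to 61131139, 21 exons) encodes the receptor for CSF1 and IL-34 on which macrophages depend. Its level was 19.5, 15.8 and 17.7 CPM in PRP 1 to 3 and 16.5, 14.2 and 17.2 CPM in controls 1 to 3. The PRP library was the higher of each pair of equal number, but control 1 and control 3 lay above PRP 2. The log2 fold change was 0.15 ± 0.13 (SE) without and 0.15 ± 0.11 with the block, with an adjusted p of 0.9998 and 0.658 in edgeR. Leaving out single libraries moved it between 0.07 and 0.22. The span of Csf1r holds Mir6983 and Gm52352, whose reads could have been counted for it.

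Cx3cr1 (Entrez 13051, chromosome 9, 120048683 to 120068296, 3 exons) encodes the receptor of the membrane-bound chemokine fractalkine, a marker of tissue macrophages and microglia. Libraries PRP 1 to 3 had 4.01, 3.26 and 4.29 CPM, and controls 1 to 3 had 2.70, 3.34 and 3.63 CPM. PRP 1 and PRP 3 were above every control and PRP 2 was below 2 of them. Its log2 fold change, 0.26 ± 0.24 (SE), was the largest after that of C1qa, and the fold interval of 0.83 to 1.72 included 1. The gene overlaps the non-coding gene Gm33858.

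Adgre1 (Entrez 13733, chromosome 17, 57358581 to 57483529, 22 exons) encodes F4/80, the surface antigen most used to find mouse macrophages. It stood at 4.17, 3.56 and 5.07 CPM in PRP 1 to 3, against 4.71, 3.71 and 5.99 CPM in controls 1 to 3. Each PRP library was below the control of its number, while the groups overlapped. The log2 fold change of -0.17 ± 0.25 (SE) turned to 0.02 without control 3. Adgre1 spans the pseudogenes Gm18069 and Gm20243.

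Cd68 (Entrez 12514, chromosome 11, 69664213 to 69666170, 6 exons) encodes a lysosomal membrane glycoprotein of phagocytes. It had 5.79, 6.18 and 6.40 CPM in PRP 1 to 3 and 5.91, 6.58 and 7.44 CPM in controls 1 to 3. Each PRP library was below the control of its number, while the groups overlapped. The log2 fold change was -0.12 ± 0.17 (SE), and it stayed between -0.20 and -0.03 when single libraries were left out.

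Mrc1 (Entrez 17533, chromosome 2, 14229414 to 14332023, 30 exons) encodes the mannose receptor CD206, an endocytic receptor that lymphatic and sinusoidal endothelium also carries. Its 21.8, 18.7 and 22.4 CPM in PRP 1 to 3 stood beside 26.9, 17.6 and 23.0 CPM in controls 1 to 3. Control 1 was the highest and control 2 the lowest, so the controls enclosed all PRP values. Without control 1 its log2 fold change of -0.10 ± 0.16 (SE) became 0.05. Within groups its counts varied 20.8 times as much as counting alone would give, the most of the 10 genes. The microRNA gene Mir511 lies inside it.

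Tyrobp (Entrez 22177, chromosome 7, 30413782 to 30417582, 5 exons) encodes DAP12, the adaptor through which TREM2 and related receptors reach the kinase SYK. PRP 1 to 3 had 4.12, 3.17 and 4.32 CPM, and controls 1 to 3 had 4.27, 2.45 and 5.00 CPM. Replicate 2 was lowest in both groups, and the groups overlapped throughout. A log2 fold change of -0.01 ± 0.29 (SE) without and 0.03 ± 0.22 with the block left its sign unsettled, and it was 0.21 without control 3. Its fold interval of 0.63 to 1.57 was the widest of the 10 genes.

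The 3 chains of C1q are encoded side by side on chromosome 4, in the order C1qb (Entrez 12260, 136880126 to 136886200), C1qc (Entrez 12262, 136889801 to 136892936) and C1qa (Entrez 12259, 136895916 to 136898844), all on the minus strand and with 3 exons each. The protein holds the A, B and C chains in equal numbers. C1qa had 10.9, 10.5 and 10.6 CPM in PRP 1 to 3, against 8.98, 8.42 and 7.98 CPM in controls 1 to 3. All 3 PRP values lay above all 3 controls. Its mean was 10.7 ± 0.2 CPM in PRP and 8.46 ± 0.50 CPM in control (SD, n = 3 each), a fold of 1.26 with an interval of 1.02 to 1.56. The log2 fold change was 0.33 ± 0.14 (SE), and the adjusted p of 0.9998 without and 0.355 with the block did not pass in edgeR. Over the 19 alternatives its log2 fold change stayed above 0, and between 0.29 and 0.38 when libraries were left out, with a lowest adjusted p of 0.342. Within groups its counts varied 0.61 times as much as counting alone would give, less than in any of the other 9 genes, where the ratio was 1.85 to 20.8.

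C1qb, the neighbour at the other end of the cluster, had 7.91, 6.51 and 9.11 CPM in PRP 1 to 3, against 6.83, 6.85 and 7.78 CPM in controls 1 to 3. PRP 2 was the lowest of the 6 and PRP 3 the highest. Its log2 fold change was 0.13 ± 0.18 (SE). C1qc, which lies between the others, had 9.83, 7.51 and 7.48 CPM in PRP 1 to 3 and 8.73, 8.16 and 8.55 CPM in controls 1 to 3. Here PRP 1 was above all controls, and PRP 2 and PRP 3 were below all controls. The log2 fold change of C1qc was -0.04 ± 0.17 (SE).

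The subunit balance was read as each gene's share of the C1q level per kilobase of transcript. C1qa held 40.4%, 45.3% and 41.0% in PRP 1 to 3, against 38.9%, 38.2% and 34.99% in controls 1 to 3. The share of C1qc was 31.5%, 27.9% and 25.1% in PRP 1 to 3 and 32.7%, 32.0% and 32.4% in controls 1 to 3. For C1qb it was 28.0%, 26.8% and 33.9% in PRP 1 to 3, and 28.3%, 29.7% and 32.6% in controls 1 to 3. The PRP libraries thus had the higher C1qa share and the lower C1qc share in every case, while the shares of C1qb overlapped. Shares sum to 100%, so they do not move independently. As a share of the raw C1q counts, C1qa held 38.1% (exact 95% interval 35.1% to 41.1%) of 1043 counts in PRP 1, 42.9% (39.6% to 46.2%) of 889 in PRP 2 and 38.9% (35.8% to 42.0%) of 980 in PRP 3. In control 1 it held 36.6% (33.4% to 39.9%) of 880 counts, in control 2 35.9% (32.7% to 39.3%) of 841 and in control 3 32.8% (29.7% to 36.1%) of 856. The intervals of PRP 1 and PRP 3 overlapped those of all controls, and that of PRP 2 overlapped those of control 1 alone. Intervals cover counting error only. The share per kilobase averaged 42.2% ± 2.6 in PRP and 37.4% ± 2.1 in control (SD, n = 3 each), and no test was run on it.

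**Figure D4:**
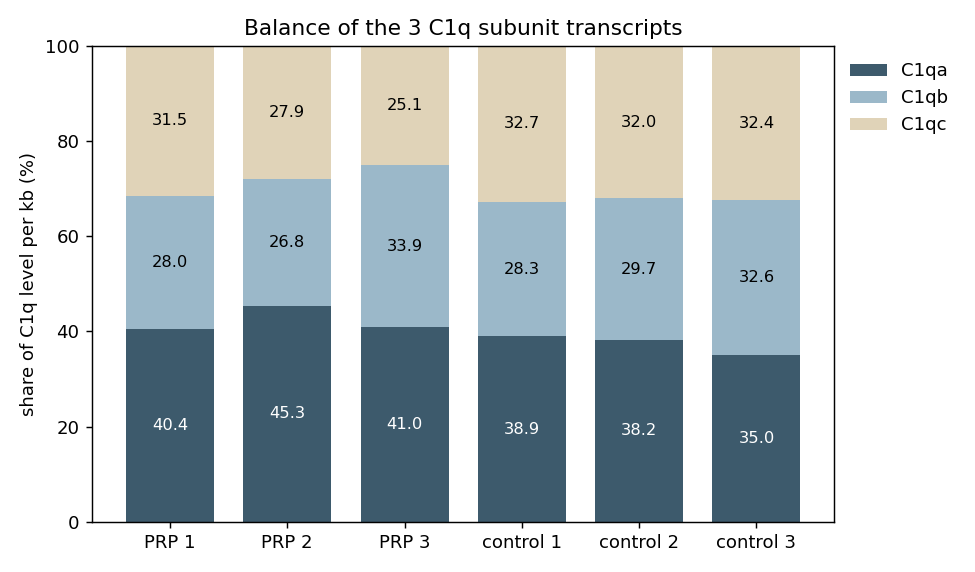
Share of C1qa, C1qb and C1qc in the summed C1q level per kilobase of transcript, in percent, with 1 stacked bar per library and PRP on the left. The C1qa segment is 40.4% to 45.3% in PRP and 34.99% to 38.9% in control.

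The genes around these 10 were described from 14 further lists with 172 genes, of which 129 were tested. None passed without the block in edgeR, where 3 of the 129 (2.33%; Mif, Irf5 and Ikzf1) had an unadjusted p below 0.05, beside 3.19% of all genes. With the block 17 (13.2%) did, beside 11.2% of all genes. These were not spread evenly over the lists. They held 7 of 27 other macrophage markers (25.9%), 3 of 10 macrophage ligands (30%) and 3 of 11 lineage transcription factors (27.3%). Each of the remaining lists gave at most 1. The difference between lists was not tested. Without control 3, 32 of the 129 genes changed sign and the median of all tested genes was 0.01. With the replicate block and all 6 libraries, Nr4a1 was the single gene of these lists to pass in edgeR. This early response transcription factor is listed here for its part in patrolling monocytes. Nr4a1 had 159.8, 76.8 and 107.9 CPM in PRP 1 to 3 and 114.6, 58.1 and 89.7 CPM in controls 1 to 3. Its groups overlapped, and each PRP library was above the control of its number (log2 fold change 0.38 ± 0.06 SE, edgeR adjusted p = 0.0164 with the block and 0.9998 without).

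Growth factors and chemokines that act on macrophages had a median log2 fold change of 0.11 over 10 tested genes, 8 of them above 0 (0.20 and 10 of 10 without control 3). Gas6, which bridges dying cells to phagocyte receptors, was the most abundant and averaged 772 ± 52 CPM in PRP and 718 ± 83 CPM in control (SD, n = 3 each). Mif, a cytokine named for inhibiting macrophage migration, had 141, 133 and 136 CPM in PRP 1 to 3, against 121, 115 and 126 CPM in controls 1 to 3. All its PRP values lay above all controls, but it did not pass (log2 fold change 0.18 ± 0.06 SE, edgeR adjusted p = 0.9998 without and 0.176 with the block). The monocyte attractant Ccl2 had 12.8, 11.01 and 11.2 CPM in PRP 1 to 3 and 12.5, 10.1 and 25.8 CPM in controls 1 to 3, the high value being that of control 3.

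Transcription factors of the lineage had a median of 0.02 over 11 tested genes, 6 of them above 0 (0.01 and 6 without control 3). Irf5, which drives inflammatory genes in macrophages, had 14.1, 14.2 and 15.1 CPM in PRP 1 to 3, against 12.02, 11.2 and 12.6 CPM in controls 1 to 3. Its groups did not overlap, at a log2 fold change of 0.27 ± 0.12 (SE) and an adjusted p of 0.9998 in edgeR. Ikzf1, a factor of lymphoid and myeloid cells, had 1.81, 1.13 and 1.41 CPM in PRP 1 to 3 and 2.45, 1.73 and 8.94 CPM in controls 1 to 3, again with control 3 highest, and its log2 fold change was -1.59 with and -0.52 without control 3. For Runx1 and Maf, the most abundant of this list, the log2 fold change was -0.12 ± 0.10 and 0.03 ± 0.11 (SE).

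Other macrophage markers had a median of 0.07 over 27 tested genes, 16 above 0 and 11 below (0.24, 21 and 6 without control 3). Cd163, Timd4 and Vsig4, also listed, had too few counts to test, at most 14, 16 and 4 in a library. The scavenger receptor genes among the tested markers lay on either side of 0. Marco averaged 8.44 ± 1.21 CPM in PRP and 6.49 ± 0.63 CPM in control, and Msr1 averaged 5.42 ± 0.23 CPM in PRP and 6.92 ± 0.38 CPM in control (SD, n = 3 each). Their log2 fold changes were 0.38 ± 0.18 and -0.35 ± 0.17 (SE), and all 3 PRP values of Msr1 lay below all controls. Neither passed (edgeR adjusted p = 0.9998). Fcgr1, also of this list, had all 3 PRP values above all controls. It had 1.87, 1.46 and 1.55 CPM in PRP 1 to 3 and 1.00, 1.23 and 0.97 CPM in controls 1 to 3. Its log2 fold change was 0.61 ± 0.32 (SE), and it did not pass (edgeR adjusted p = 0.9998). Each direction thus held for 1 of the 27 tested markers, beside 4.34% (above) and 4.87% (below) of all genes. Mertk, a receptor for uptake of dying cells that other cell types also carry, had a log2 fold change of -0.01 ± 0.15 (SE), and of 0.17 ± 0.12 without control 3. Cd14, the co-receptor for bacterial lipopolysaccharide, had 12.2, 10.2 and 12.05 CPM in PRP 1 to 3 and 8.78, 7.44 and 22.9 CPM in controls 1 to 3. Control 3 was the highest of the 6 and the other controls the lowest, so that its log2 fold change of -0.19 ± 0.42 (SE) was 0.50 ± 0.17 without control 3.

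Genes of TYROBP and ITAM signalling had a median of 0.00 over 10 tested genes (0.08 without control 3). Plcg2 and Syk, the phospholipase and the kinase downstream of TYROBP, were at 0.01 ± 0.08 and 0.00 ± 0.13 on the log2 fold scale (SE). Lyn, a kinase that phosphorylates ITAM motifs, had -0.26 ± 0.20 (SE), with control 3 the highest library, and -0.07 ± 0.19 without it. The phosphatase gene Inpp5d had 0.14 ± 0.13 (SE). The other complement genes had a median of -0.02 over 14 tested, with 5 above 0 (0.06 and 10 without control 3). Among them C1s1, the protease that C1q activates by way of C1r, had 33.3, 30.9 and 30.2 CPM in PRP 1 to 3 and 28.2, 34.1 and 60.8 CPM in controls 1 to 3.

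Cytokines and enzymes of activated macrophages lay below 0 in 10 of 12 tested genes, with a median log2 fold change of -0.20. Without control 3 it was 7 of 12 and -0.07. They summed to 110 to 163 CPM in PRP and to 148, 102 and 194 CPM in controls 1, 2 and 3. The chemokine gene Cxcl2 averaged 1.94 ± 0.38 CPM in PRP and 3.27 ± 1.57 CPM in control, and Nfkbiz, an NF-kB cofactor, 34.4 ± 2.6 CPM in PRP and 40.0 ± 7.0 CPM in control (SD, n = 3 each). Control 3 was the highest library for both, and without it their log2 fold changes were -0.35 ± 0.37 and -0.09 ± 0.12 (SE). Class II presentation genes had a median of -0.13 over 8 tested genes (-0.07 without control 3). H2-Aa, a class II chain, had 12.9, 6.87 and 13.6 CPM in PRP 1 to 3 and 8.36, 7.02 and 9.60 CPM in controls 1 to 3, so that only PRP 1 and PRP 3 stood above the controls.

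**Figure D5:**
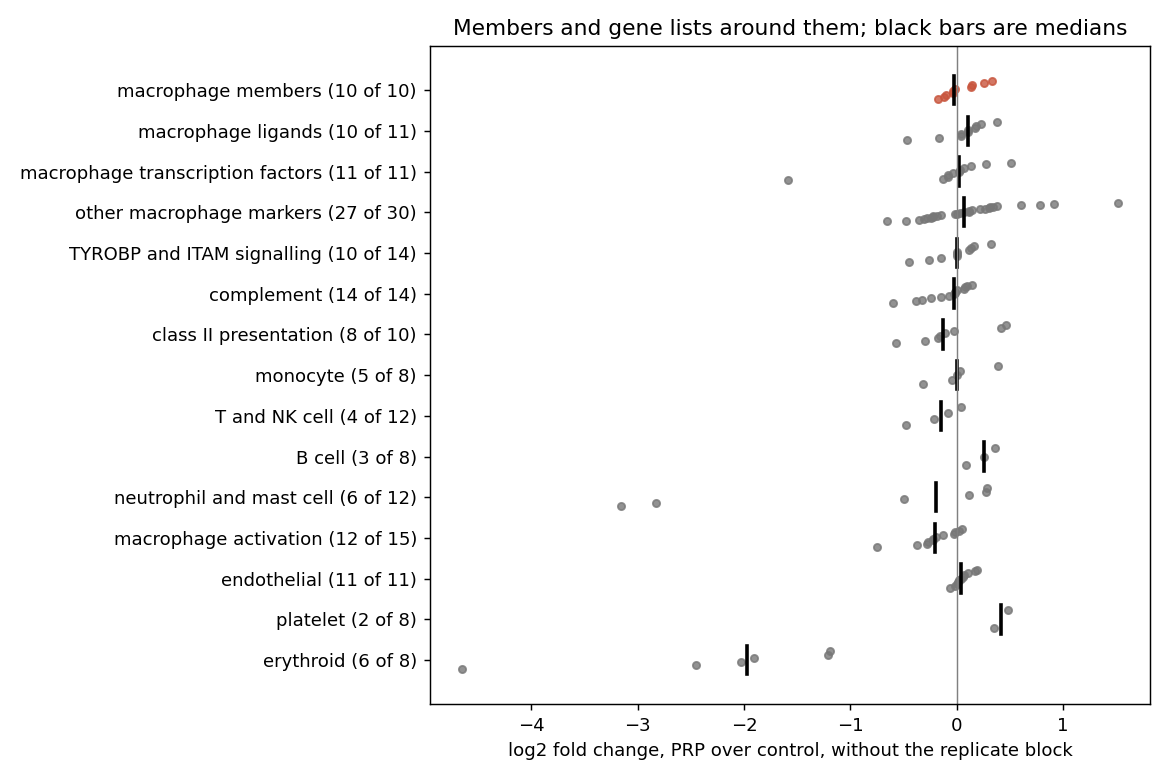
Log2 fold change, PRP over control, of every tested gene of the 10 macrophage genes (top) and of the 14 lists around them, with medians as black bars and the number tested of those listed in parentheses. The macrophage genes run from -0.17 to 0.33, and the 6 tested red cell genes all lie below 0, at -1.20 to -4.65, with control 3 and at -0.26 to 0.62, 4 of them above 0, without it.

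Most markers of lymphocytes were low or at 0, and those of monocytes differed. Exceptions among the lymphocyte markers were Cd4, at 4.90 to 7.64 CPM, the B cell gene Blnk, at 2.01 to 5.96 CPM, and Lck. Lck was at 1.60 to 1.81 CPM in PRP and 2.31 to 2.47 CPM in control. All its PRP values lay below all controls, as in 4.87% of all genes. Its log2 fold change was -0.48 ± 0.26 (SE), and it did not pass (edgeR adjusted p = 0.9998). Among lymphocyte genes, 8 of the 12 listed for T and NK cells and 4 of the 7 found for B cells had too few counts to test. Ncr1, a defining NK cell receptor, was at 0 counts in 5 of 6 libraries, and Cd3d, a chain of the T cell receptor complex, in 4 of 6. The T and NK list summed to 8.17 to 10.2 CPM in PRP and 10.6 to 11.6 CPM in control, most of it from Cd4 and Lck. Ly6c2, which marks inflammatory monocytes, was at 0 in 3 libraries and reached at most 0.17 CPM. Plac8, also listed for monocytes, had 5.19, 3.01 and 6.40 CPM in PRP 1 to 3 and 7.22, 3.34 and 7.61 CPM in controls 1 to 3, a level within the range of the 10 macrophage genes. Mast cell proteases were present. The mast cell receptor genes Ms4a2 and Fcer1a had too few counts to test, at most 7 and 2 in a library. Cpa3 had 11.6, 10.3 and 12.05 CPM in PRP 1 to 3 and 8.59, 12.3 and 10.5 CPM in controls 1 to 3, and Cma1 had 16.1, 11.2 and 23.0 CPM in PRP 1 to 3 and 12.4, 15.4 and 13.7 CPM in controls 1 to 3. Mast cells carry Ptprc and Tyrobp too, so these are not markers of macrophages alone. Endothelial genes were set beside Mrc1 library by library. Of the 11, 5 (Pecam1, Cdh5, Kdr, Tie1 and Stab1) were above Mrc1 in CPM in all 6 libraries and 4 (Tek, Emcn, Flt4 and Stab2) below it in all 6. Cdh5 was at 84.9 to 111 CPM in PRP and 91.2 to 111 CPM in control, and the lymphatic factor gene Prox1 at 17.7 to 18.4 CPM in PRP and 17.2 to 19.7 CPM in control. These CPM are not per length. Their part in the Mrc1 values was not tested.

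The variation of the 10 genes across the 6 libraries was also described. The mean of their centred log2 CPM was 0.10, -0.14 and 0.11 in PRP 1 to 3 and -0.02, -0.18 and 0.13 in controls 1 to 3, so replicate 2 was lowest in both groups. Pearson's r between pairs of the 10 genes had a median of 0.36 over 45 pairs, of which 35 were above 0. No such values were computed for pairs of other genes, so these cannot be called particular to the 10. With that mean profile, which contains each gene, Tyrobp (r = 0.91), Csf1r (0.86), Adgre1 (0.82) and C1qb (0.82) went along most, and Cd68 (0.20) and C1qa (0.12) least. Of the 10 chemokines and growth factors tested 10 had an r over 0.5 with the profile, of the 27 other macrophage markers 16 (59.3%), of the 11 endothelial genes 8 (72.7%), and of all other tested genes 25.3%. So did 4 of 6 red cell genes (66.7%), 5 of 5 monocyte genes, 10 of 12 macrophage activation genes and 8 of 14 other complement genes. For TYROBP and ITAM signalling it was 5 of 10, and for platelet genes 1 of 2. The lists with the lowest shares were those of neutrophils and mast cells (1 of 6), class II presentation (2 of 8), T and NK cells (1 of 4), B cells (1 of 3) and the lineage transcription factors (4 of 11). The 10 genes most like the profile were Igfbp7, Ifi207, Fam78a, Mctp1, Paics, Fbn1, Ntrk2, Pgam1, Asphd2 and Ndrg2, with r between 0.991 and 0.996, and none of them was in a list. These values describe 6 libraries that share depth, culture and replicate number, and were not tested.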

How the data were processed

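Groups and replicate numbers came from sample titles. The authors deposited raw counts for each gene symbol, and the genome build was GRCm38/mm10 per the submitters' processing notes. Not given in the sources used here were the aligner, counter, strand setting and annotation, so reads of overlapping genes could be counted for either. The PRP 3 column spells its title with letters transposed, and every other title had a column of its own.

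The main test was edgeR 4.0.16 (R 4.3.3), unpaired: genes kept by filterByExpr, TMM scaling, a robust two-sided quasi-likelihood F test and Benjamini-Hochberg adjustment over 17475 genes at 0.05. Each SE is the log2 fold change divided by the root of F, with 95% intervals from the same fit. CPM used TMM-scaled sizes over tested genes. Lengths are of the longest coding transcript in GENCODE M21, and coordinates of RefSeq GRCm38.p6 by Entrez identifier. Correlations used log2 CPM with a prior count of 2. Alternatives were a replicate block, DESeq2 1.42.0, limma-voom 3.58.1 (robust), other scalings and filters, and leaving out libraries. The procedure was tested on simulated data.

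Deviations from the group means had correlations of 0.24, 0.40 and 0.33 for equal replicate numbers and below 0 otherwise, so the numbers were taken as pairs, from these data and not from a label.

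The 10 genes and the lists were chosen with earlier results of these data known. The rule for naming list genes took those past the threshold in either fit (at most 4), otherwise the 2 of smallest p and the 2 most abundant, plus the 10 closest to the mean profile. Only some of the genes it named are printed, chosen after their values were seen. Chosen likewise, outside it, were Fcgr1, the untested macrophage and mast cell genes and the markers given for monocytes, lymphocytes and endothelium. Xcr1, Ighm and Ly6g were not analysed here.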

Additional observations from a re-analysis of the deposited data

How the results depend on the processing

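None of the 10 macrophage genes passed in any of the 19 alternatives. Over all genes, 0 passed in the unpaired fit (557 at an unadjusted p under 0.05), in DESeq2 (551) and in limma-voom (564), while 21 passed in edgeR and 26 in limma-voom with the replicate block. With the replicate block and a pair left out, 3, 1 and 19 passed without replicates 1, 2 and 3, and 0 when single libraries were left out of the unpaired fit. The median log2 fold change of the 10 genes ran from -0.068 to 0.15 over unpaired fits without single libraries, the upper value being that without control 3. Signs changed in 5 genes. Tyrobp turned to 0.028 with the replicate block and 0.039 in limma-voom. Without single libraries Tyrobp ran from -0.26 to 0.21, Ptprc from -0.12 to 0.11, Adgre1 from -0.32 to 0.020, Mrc1 from -0.25 to 0.045 and C1qc from -0.18 to 0.032. With the replicate block and a pair left out, Tyrobp was at 0.069 and 0.15 without replicates 1 and 3, Ptprc at -0.19, 0.039 and 0.075 without replicates 1, 2 and 3, Mrc1 at 0.023 without replicate 1 and C1qc at 0.028 without replicate 3. The cause was not tested. The signs of Csf1r, Cx3cr1, Cd68, C1qa and C1qb held in all 19 alternatives. Other scalings moved the summed CPM, and coding length the C1qa share, by less than the spread between replicates. The medians of the lists without control 3 were chosen after seeing the data. Counts of 84 to 964 per gene and library limit the precision of single genes.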
